A study of Homo sapiens with 8 samples.

Results

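Ribosomes that stall or collide on an mRNA have to be freed, the unfinished protein has to be destroyed, and further initiation on the faulty message can be shut off. The 10 genes described here encode factors for these steps. PELO, HBS1L, GTPBP2 and ABCE1 act in ribosome rescue and recycling, ZNF598, NEMF and LTN1 in collision sensing and ribosome-associated quality control (RQC), and EIF4E2, GIGYF1 and GIGYF2 form the 4EHP–GIGYF translational repressor complexes. The genes were chosen by name, with earlier results of these data known, and all 10 were present among the 10105 genes of the count table.

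The values come from HEK293T cells, an established human embryonic kidney line, that were either wild type (WT) or XRN1-null, and no treatment was applied to either genotype. XRN1 is the cytoplasmic 5′–3′ exoribonuclease that degrades decapped mRNA, and the null cells are a single line made by CRISPR/Cas9 editing of an XRN1 exon. Harvest was 24 h after plating on 15 cm dishes. Each genotype had 2 biological replicates in each assay, for a total of 8 libraries. The assays were RNA-Seq, for mRNA abundance, and Ribo-Seq, which counts the ribosome-protected fragments (RPF) left after nuclease digestion. Whether the replicates were separate cultures is not described further, so p-values measure the spread between these libraries.

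A ribosome stuck with an empty A site is recognized by PELO, a relative of the termination factor eRF1, together with the GTPase HBS1L, and the ATPase ABCE1 then splits the subunits. When a trailing ribosome runs into a stalled one, the E3 ligase ZNF598 ubiquitinates small-subunit proteins at the collision. On the released large subunit NEMF adds C-terminal tails to the nascent chain and recruits the E3 ligase LTN1 (Listerin), which marks the chain for the proteasome. EIF4E2 (4EHP) binds the cap but not eIF4G, and the scaffolds GIGYF1 and GIGYF2 hold it on target mRNAs, among them those with collided ribosomes.

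In XRN1-null cells the mRNAs of LTN1, NEMF and GIGYF2 rose, by 3.17-fold, 2.26-fold and 1.73-fold. Over all genes 22.9% were called higher and 23.2% lower in mRNA. The rescue factors PELO, HBS1L, GTPBP2 and ABCE1 were not called at any level measured. With 1 Ribo-Seq library left out, the RPF log2 fold change ranged from 0.11 to 0.48 for HBS1L and from 0.13 to 0.40 for ABCE1. Footprints of no member passed the threshold in either direction, where 0.633% of all genes were called higher and 1.14% lower. The translational efficiency (TE, the ratio of RPF to mRNA) fell for LTN1, to 0.52 of its WT value. In TE 1.78% of all genes were called lower, and the LTN1 call was lost in 7 of 8 fits with 1 library left out. Genes were called at an FDR (Benjamini-Hochberg adjusted p over all 10105 genes) below 0.005 with edgeR's quasi-likelihood test.

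The starts of the coding sequences are shown for the 3 members of lowest TE (GTPBP2, ZNF598 and GIGYF1) and for PELO, the member of highest mean TE. Those of LTN1 and NEMF are shown too. The bases around the start codon are what the initiating ribosome reads. Each line gives 10 bases before the ATG and 4 after it, 5′ to 3′ on the coding strand of the GRCh37 reference (the coordinates of hg19), with the ATG of the GENCODE reference transcript in capitals.
PELO: ttccttggccATGaagc
LTN1: aaccgcgaccATGggcg
NEMF: gggcctcgccATGaaga
GTPBP2: gcagcggcggATGgact
ZNF598: atcccggaccATGgcgg
GIGYF1: cagccccacgATGgcag
The third base before the ATG was a purine in each of these but GTPBP2, which has a C. Of the 9765 genes with a reference transcript, 87.7% had a purine there and 55% had a G directly after the ATG, as LTN1, GTPBP2, ZNF598 and GIGYF1 do. The leaders differed in the number of upstream ATG triplets. PELO had 9 in a leader of 1009 nt and GIGYF1 had 10 in a leader of 1239 nt, HBS1L had 1, and the other 7 members had none, while 37.5% of all genes had at least 1.

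The 250 bases upstream of the annotated transcript start are printed for the 3 members whose mRNA rose, with the matches to the motifs searched in capitals. The motifs, searched on both strands, were the TATA box (TATAAA), the CCAAT box (CCAAT), the GC box (GGGCGG), an ETS site (CCGGAAG), the E-box (CACGTG), the cAMP response element (TGACGTCA) and the C/EBP-ATF response element (TTGCATCA). All sequences run 5′ to 3′ on the strand of the gene in GRCh37.
LTN1, chr21:30365199-30365448, minus strand: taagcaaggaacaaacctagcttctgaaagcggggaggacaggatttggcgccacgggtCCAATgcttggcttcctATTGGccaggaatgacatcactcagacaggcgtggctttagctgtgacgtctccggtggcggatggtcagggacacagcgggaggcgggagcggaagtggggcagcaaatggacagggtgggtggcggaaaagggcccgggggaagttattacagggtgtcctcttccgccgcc
NEMF, chr14:50319507-50319756, minus strand: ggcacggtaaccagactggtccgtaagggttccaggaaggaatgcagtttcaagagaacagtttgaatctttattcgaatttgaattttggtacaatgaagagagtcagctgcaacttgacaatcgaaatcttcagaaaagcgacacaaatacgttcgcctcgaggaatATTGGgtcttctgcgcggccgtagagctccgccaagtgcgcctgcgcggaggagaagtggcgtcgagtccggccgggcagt
GIGYF2, chr2:233561791-233562040, plus strand: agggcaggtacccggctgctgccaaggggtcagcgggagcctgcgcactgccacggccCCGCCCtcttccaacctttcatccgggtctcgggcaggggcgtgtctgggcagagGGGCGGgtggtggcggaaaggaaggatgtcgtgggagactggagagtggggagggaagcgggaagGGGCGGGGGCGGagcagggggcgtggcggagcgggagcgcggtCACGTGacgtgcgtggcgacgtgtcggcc
LTN1 held 2 CCAAT boxes and NEMF 1, neither held a GC box, and GIGYF2 held 4 GC boxes and 1 E-box. A CCAAT box was present in 36.3% of the 9765 such windows, a GC box in 75% and an E-box in 9.76%. None of the 3 windows held a TATA box, an ETS site or either response element, which were in 4.36%, 18.6%, 3.32% and 0.369% of windows.

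The libraries differed in depth. RNA-Seq libraries held 33757487 to 38145433 counts and Ribo-Seq libraries 1921641 to 4399542, with WT replicate 1 the shallowest, so footprint values carry more counting error. The RNA-Seq totals exceed the mapped reads that the authors report for their paired-end libraries. How the reads of a pair were counted is not given in the sources used here. As a check of the labels, XRN1 itself had 33.5 and 33 CPM in WT and 282 and 253 CPM in XRN1-null RNA-Seq, against 34.4 and 49.8 CPM in WT and 22.6 and 18.4 CPM in XRN1-null Ribo-Seq. CPM are counts scaled to the same library total with edgeR's TMM factors within each assay. The mRNA of the targeted gene was thus higher and its footprints were lower in the XRN1-null libraries, with no overlap of the genotypes. Of 8 markers of HEK293 cells 7 were present in the table, with 1 called higher (KRT18) and 2 lower (NEFM and EYA1) in mRNA, where 22.9% and 23.2% of all genes were, and 0 in RPF (by edgeR and by DESeq2; 3 at an unadjusted p under 0.05 in edgeR). Of 8 markers of other cell types only COL1A1 was in the table. COL1A1 mRNA rose by 1.34 on the log2 scale, and its part in the results below was not tested.

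LTN1 showed the largest mRNA rise of the 10 genes. LTN1 lies at chr21:30300466-30365277 on the minus strand, with 30 exons and a coding sequence of 5298 nt in the reference transcript. Its mRNA was at 37.5 and 38.9 CPM in the WT replicates and at 125 and 117 CPM in the XRN1-null replicates. The genotypes were far apart compared with the spread of their replicates. The log2 fold change was 1.66 (SE 0.0704, FDR = 4.4e-06, n = 2 per genotype, edgeR's quasi-likelihood test), and 1.33% of all genes had a larger one. LTN1 footprints were at 35.9 and 46.2 CPM in WT and at 69.8 and 70.2 CPM in XRN1-null cells. Footprints were again higher in each XRN1-null library, but by a log2 fold change of 0.73 (SE 0.157), whose FDR in edgeR was 0.0117. This log2 fold change was 0.60 without WT Ribo-Seq replicate 1 and 0.97 without WT Ribo-Seq replicate 2. It was 0.75 and 0.74 without XRN1-null Ribo-Seq replicates 1 and 2. The TE of LTN1 was 0.959 and 1.19 in the WT replicates and 0.556 and 0.602 in the XRN1-null replicates. The interaction of assay and genotype gave a log2 TE change of -0.94 (SE 0.157, edgeR FDR = 0.00386). This call was lost when any library but WT Ribo-Seq replicate 1 was left out, with FDR values of 0.00544 to 0.0462 and log2 changes of -0.99 to -0.69. Without WT Ribo-Seq replicate 1 it was -1.06 (FDR = 0.00106).

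NEMF, the partner of LTN1 on the large subunit, moved in the same direction in mRNA. NEMF lies at chr14:50248801-50319539 on the minus strand, with 33 exons and a coding sequence of 3228 nt in the reference transcript. Its mRNA was at 50.9 and 55.3 CPM in WT and at 123 and 117 CPM in XRN1-null cells. That is a log2 fold change of 1.18 (SE 0.0709, edgeR FDR = 1.52e-05) between groups that did not overlap. NEMF footprints were at 51 and 70.5 CPM in WT and 96.8 and 95.8 CPM in XRN1-null cells, a log2 fold change of 0.63 (SE 0.162, edgeR FDR = 0.0243) that became 0.42 (FDR = 0.063) with a loess offset for coding GC content, chosen after seeing the data. In fits without that offset, it was 0.46 and 0.93 when WT Ribo-Seq replicate 1 or 2 was left out. It was 0.63 and 0.65 when XRN1-null Ribo-Seq replicate 1 or 2 was left out. The TE of NEMF was 1 and 1.28 in WT but 0.788 and 0.816 in XRN1-null cells. Both XRN1-null values lay below both WT values, but the change of -0.56 (SE 0.169, edgeR FDR = 0.0648) did not pass. It was -0.25 (FDR = 0.385) without WT Ribo-Seq replicate 2 and -0.72 (FDR = 0.00673) without WT Ribo-Seq replicate 1. KLHDC2, on the opposite strand, shares 2250 bases with the reference transcript of NEMF, and whether reads were counted by strand is not given in the sources used here. KLHDC2 mRNA was at 43.2 and 43.5 CPM in WT and 39.7 and 41.6 CPM in XRN1-null cells, a log2 fold change of -0.092 (edgeR FDR = 0.248).

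How the deposited gene width was made is not given in the sources used here, and levels per kb and their ratios between genes rest on it. Per kb of this width, NEMF mRNA exceeded LTN1 mRNA by a ratio of 2.41 and 2.52 in WT and of 1.74 and 1.79 in XRN1-null libraries. The ratio of their footprints per kb was 2.52 and 2.71 in WT and 2.46 and 2.42 in XRN1-null libraries. The mRNA ratios of the genotypes were clearly separate, whereas the footprint ratios lay close together. With the length of the reference transcript in place of the width, an alternative chosen after seeing the data, the mRNA ratios were 1.79 and 1.87 in WT and 1.29 and 1.33 in XRN1-null libraries.

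ZNF598, the collision sensor upstream of both, did not share the mRNA rise. ZNF598 lies at chr16:2047655-2059822 on the minus strand, and 66.6% of the bases of its coding sequence are G or C, against a median of 51.3% over all genes. ZNF598 mRNA was at 105 and 111 CPM in WT and at 102 and 106 CPM in XRN1-null cells, a log2 fold change of -0.054 (SE 0.0654, edgeR FDR = 0.484). The groups overlapped, and the sign of this value changed with the scaling. Its footprints were at 35.9 and 36.8 CPM in WT and at 26.3 and 20.9 CPM in XRN1-null cells, and both XRN1-null libraries lay below both WT libraries. The log2 fold change was -0.61 (SE 0.171, edgeR FDR = 0.0335), and 8.6% of all genes had a lower one. With 1 Ribo-Seq library left out it ranged from -0.80 to -0.47. With each library's dependence on coding GC content removed by the same loess offset, it was -0.27 (FDR = 0.313). Footprints of GC-rich genes were lower in XRN1-null cells as a class, with a median log2 fold change of -0.20 over the 3255 genes highest in coding GC content and 0.15 over the 3255 lowest.

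Of the 4EHP–GIGYF genes, only GIGYF2 passed the threshold in mRNA. GIGYF2 lies at chr2:233562009-233725315 on the plus strand, with a coding sequence of 3897 nt in 29 exons of the reference transcript. GIGYF2 mRNA was at 59.3 and 67.7 CPM in WT and at 110 CPM in both XRN1-null libraries, a log2 fold change of 0.79 (SE 0.0783, edgeR FDR = 0.000109). GIGYF2 footprints were at 56.3 and 72.8 CPM in WT and 83.4 and 94.9 CPM in XRN1-null cells. The groups did not overlap, and the log2 fold change of 0.43 (SE 0.158, edgeR FDR = 0.0813) did not pass. It was 0.29 and 0.67 without WT Ribo-Seq replicates 1 and 2, and 0.54 and 0.35 without XRN1-null Ribo-Seq replicates 1 and 2. Its TE was 0.949 and 1.08 in WT but 0.757 and 0.866 in XRN1-null cells, a log2 change of -0.37 (SE 0.172, edgeR FDR = 0.219) that was -0.12 without WT Ribo-Seq replicate 2.

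GIGYF1, the paralog of GIGYF2, lies at chr7:100277130-100291873 on the minus strand. GIGYF1 mRNA was at 52.8 and 47.3 CPM in WT and 50.4 and 55.3 CPM in XRN1-null cells, and the groups overlapped (log2 fold change 0.077, SE 0.081, edgeR FDR = 0.425). GIGYF1 footprints were the fewest of the 10 genes, with 15 and 44 counts in WT and 64 and 48 counts in XRN1-null libraries. These are 7.81 and 10.1 CPM in WT and 15.9 and 15 CPM in XRN1-null cells. The log2 fold change of 0.73 (SE 0.238, edgeR FDR = 0.0568) came from few counts. With the GC offset it was 0.99 (FDR = 0.0209), while that of LTN1 went from 0.73 to 0.52 (FDR = 0.0323). The TE change of GIGYF1, 0.65 (SE 0.244, edgeR FDR = 0.135), did not pass, and 1.66% of all genes had a larger one. Per kb, GIGYF2 mRNA was at 0.778 and 0.991 of GIGYF1 mRNA in WT and at 1.52 and 1.37 of it in XRN1-null libraries. With reference transcript lengths the WT ratios were 0.942 and 1.2, so the order of the paralogs in WT depends on the length used, and GIGYF2 was above GIGYF1 in XRN1-null libraries with either length (1.84 and 1.66 with transcript lengths). In footprints per kb GIGYF2 was above GIGYF1 in every library, 4.99 times in both WT libraries and 3.64 and 4.39 times in the XRN1-null libraries.

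EIF4E2, the cap-binding subunit, lies at chr2:233415369-233448354, 113654 nt upstream of GIGYF2 and on the same strand. EIF4E2 mRNA was at 99.5 and 101 CPM in WT and at 81.5 and 84.4 CPM in XRN1-null cells, the only member with lower mRNA in both XRN1-null libraries. The log2 change of -0.28 (SE 0.0622) had an edgeR FDR of 0.0056, just over the threshold, and passed it at 0.00299 with the GC offset. It also passed without WT RNA-Seq replicate 1 (FDR = 6.69e-05) and without WT RNA-Seq replicate 2 (FDR = 6.34e-05), but not without XRN1-null RNA-Seq replicate 1 (FDR = 0.112) or replicate 2 (FDR = 0.0618), nor with RLE factors (0.00738), library totals (0.0158), DESeq2 (0.00711) or a minimum of 10 counts in every library (0.0084). EIF4E2 footprints were at 60.4 and 42.3 CPM in WT and at 58.1 and 44.9 CPM in XRN1-null cells, with groups that overlapped and replicates that differed more than the genotypes (log2 fold change 0.064, SE 0.193, edgeR FDR = 0.845). The TE change was 0.36 (SE 0.202, edgeR FDR = 0.318), and ran from 0.071 without WT Ribo-Seq replicate 2 to 0.58 without WT Ribo-Seq replicate 1. Per kb, EIF4E2 mRNA was at 3.94 and 3.51 times GIGYF2 mRNA in WT and at 1.74 and 1.81 times in XRN1-null libraries. With reference transcript lengths these were 13.6 and 12.1 times in WT and 5.97 and 6.22 times in XRN1-null libraries, since the reference transcript of EIF4E2 has only 967 nt.

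The 4 rescue and recycling factors showed no called difference in mRNA, where 22.9% of all genes were called higher and 23.2% lower. None was called in RPF (0.633% and 1.14% of all genes) or TE (0.0495% and 1.78%), where calls were rare. In edgeR none of the 4 had an unadjusted p under 0.05 in any of the contrasts. Over all genes 34% were higher and 36% lower at this cutoff in mRNA, 16.2% and 16.8% in RPF, and 8.76% and 14.6% in TE. DESeq2 called none of the 4. PELO mRNA was at 34.3 and 41.8 CPM in WT and 36.3 and 39.2 CPM in XRN1-null cells, with both XRN1-null values between the WT values. Its log2 fold change was -0.01 (SE 0.103, edgeR FDR = 0.937), and its sign changed with the scaling. PELO footprints were at 47.9 and 50.5 CPM in WT and 53.6 and 56.5 CPM in XRN1-null cells, a log2 fold change of 0.15 (SE 0.144, edgeR FDR = 0.487) without overlap of the groups. PELO lies at chr5:52083750-52099878, within the gene span of ITGA1 on the same strand, and the exons of both share 499 bases. ITGA1 mRNA had a log2 fold change of 0.26 (edgeR FDR = 0.0995).

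HBS1L (chr6:135281516-135424194, minus strand), the GTPase that works with PELO, had 166 and 169 CPM of mRNA in WT and 175 and 169 CPM in XRN1-null cells. The log2 fold change was 0.037 (SE 0.061, edgeR FDR = 0.608). HBS1L footprints were at 96.4 and 125 CPM in WT and at 140 and 127 CPM in XRN1-null cells, a log2 fold change of 0.26 (SE 0.156, edgeR FDR = 0.272). It was 0.11 and 0.48 without WT Ribo-Seq replicates 1 and 2, and 0.19 and 0.33 without XRN1-null Ribo-Seq replicates 1 and 2. The gap between the nearest libraries of the genotypes was far smaller than the gap between the WT replicates. Per kb, HBS1L mRNA was above PELO mRNA in every library, by 1.27 to 1.52 times, and by 2.49 to 2.99 times with reference transcript lengths. HBS1L footprints were at 0.629 to 0.817 times PELO footprints per kb of the deposited width, but at 1.13 to 1.47 times per kb of coding sequence, so their order turns with the length used.

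GTPBP2 (chr6:43573053-43597001, minus strand), a GTPase that binds PELO, had 57.6 and 56.5 CPM of mRNA in WT and 61 and 63.5 CPM in XRN1-null cells, a log2 fold change of 0.13 (SE 0.0625, edgeR FDR = 0.11). GTPBP2 footprints were at 15.6 and 14.5 CPM in WT and at 17.4 and 17.5 CPM in XRN1-null cells, from 30 to 70 counts per library, with a log2 fold change of 0.23 (SE 0.204, edgeR FDR = 0.462). Neither assay had overlapping groups, and neither difference passed the threshold. GTPBP2 shares 261 exonic bases with POLH on the opposite strand, whose mRNA rose by 0.70 (edgeR FDR = 0.00091).

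ABCE1 (chr4:146019440-146050676, plus strand) had the highest footprint level of the 10 genes. Its mRNA was at 249 and 264 CPM in WT and 255 and 260 CPM in XRN1-null cells, a log2 fold change of 0.0071 (SE 0.0641, edgeR FDR = 0.929). Both XRN1-null values again lay between the WT values. ABCE1 footprints were at 268 and 320 CPM in WT and 348 and 351 CPM in XRN1-null cells, a log2 fold change of 0.24 (SE 0.141, edgeR FDR = 0.247) that became 0.017 with the GC offset. In fits without the offset, it was 0.13 and 0.40 when WT Ribo-Seq replicate 1 or 2 was left out. It was 0.25 and 0.24 when XRN1-null Ribo-Seq replicate 1 or 2 was left out. With the GC offset HBS1L, also low in coding GC content, went from 0.26 to 0.075. On the opposite strand ABCE1 shares 276 exonic bases with OTUD4, whose mRNA rose by 0.38 (edgeR FDR = 0.00149), and 132 with ANAPC10, whose mRNA log2 fold change was -0.18 (edgeR FDR = 0.0605).

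**Figure D1:**
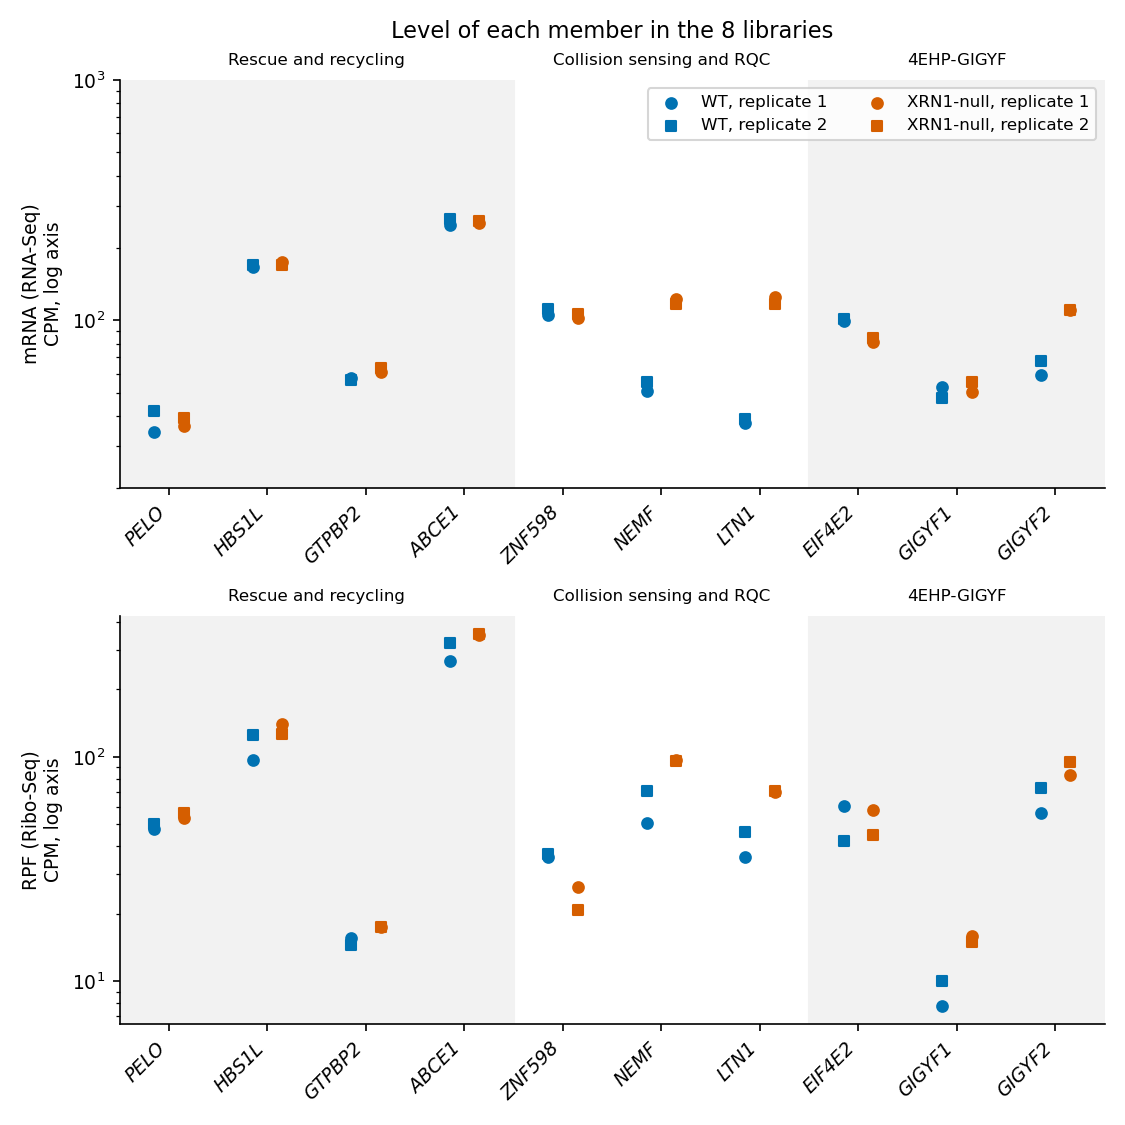
CPM (log axis) of the 10 members in RNA-Seq (top) and Ribo-Seq (bottom). Each point is 1 library, blue for WT and orange for XRN1-null, with replicate 1 as a circle and replicate 2 as a square. LTN1 mRNA moves from 37.5 and 38.9 CPM in WT to 125 and 117 CPM in XRN1-null cells, while the points of PELO and ABCE1 mRNA overlap.

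These counts are read against the share of all genes called. Of the 10 members, 3 were called higher in mRNA, where 22.9% of the 10105 genes were called higher, and 0 were called lower, where 23.2% were. At an unadjusted p under 0.05 in edgeR, and at an FDR below 0.05, 3 members were higher and 1 was lower (EIF4E2), while DESeq2 called 0 lower at 0.005. Over all genes 34% were higher and 36% lower at the former, and 32.8% and 34.2% at the latter. The mRNA values of the genotypes did not overlap for 6 members, 5 higher and 1 lower, against 41% higher and 43.7% lower over all genes.

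In RPF 0 members were called in either direction by edgeR and by DESeq2, where edgeR called 0.633% of all genes higher and 1.14% lower. At an unadjusted p under 0.05 in edgeR 4 members were higher (NEMF, LTN1, GIGYF1 and GIGYF2) and 1 was lower (ZNF598), against 16.2% and 16.8% of all genes. At an FDR below 0.05 there were 2 higher (NEMF and LTN1) and 1 lower (ZNF598), against 7.07% and 8.38% of all genes. Footprints of the genotypes did not overlap for 8 members that were higher and for ZNF598, which was lower, against 32.1% and 32.3% of all genes. With WT Ribo-Seq replicate 2 left out, 5 members passed the threshold as higher (HBS1L, ABCE1, NEMF, LTN1 and GIGYF2), as did 12.7% of all genes. With WT Ribo-Seq replicate 1 left out, 2 were called higher (LTN1 and NEMF) and 1 lower (ZNF598), where 5.82% and 7% of all genes were. The median RPF log2 fold change of the members was 0.25, against -0.0033 over all genes.

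In TE, 1 member was called lower (LTN1), where 1.78% of all genes were, and 0 were called higher, where 0.0495% were. At an unadjusted p under 0.05 in edgeR, 3 members were lower (ZNF598, NEMF and LTN1) and 1 was higher (GIGYF1), against 14.6% and 8.76% of all genes. DESeq2 also called LTN1 lower and 0 higher, and the LTN1 call was lost in 7 of the 8 fits that left out 1 library. An FDR below 0.05 added no member, while it took in 6.46% of all genes as lower and 1.02% as higher.

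**Figure D2:**
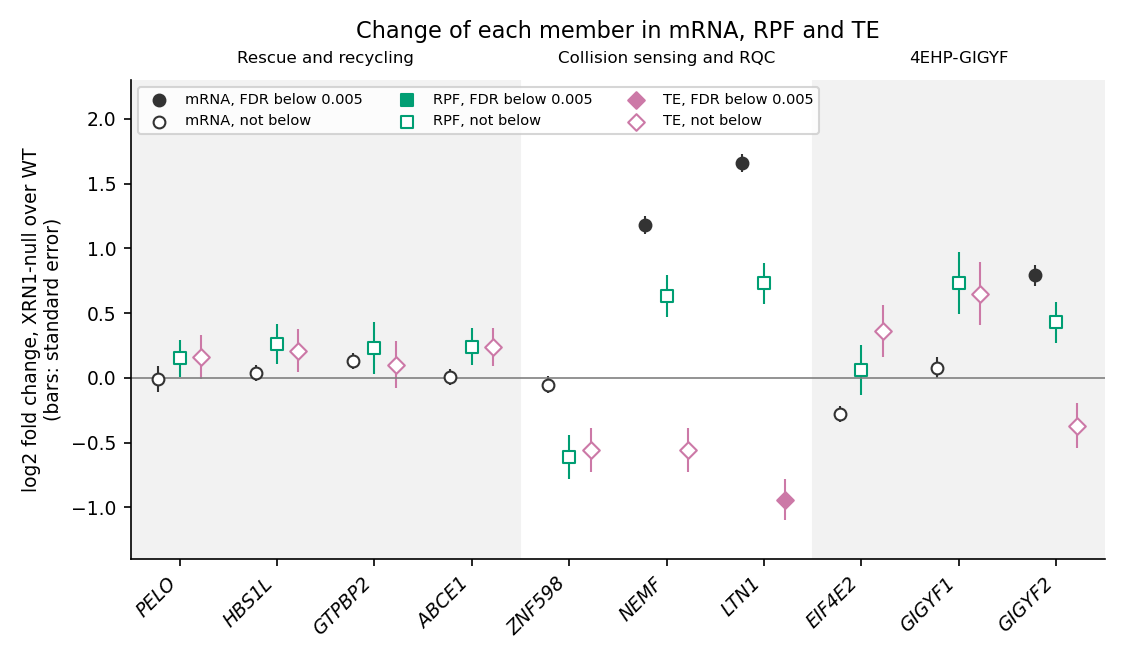
Log2 fold change of XRN1-null over WT for each member in mRNA (circles), RPF (squares) and TE (diamonds), with bars of 1 standard error and filled symbols for an FDR below 0.005. LTN1, NEMF and GIGYF2 are filled in mRNA, at 1.66, 1.18 and 0.79, and LTN1 is the only filled symbol in TE, at -0.94.

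The 3 mRNAs that rose had smaller RPF than mRNA changes, and TE estimates of -0.94 (LTN1), -0.56 (NEMF) and -0.37 (GIGYF2). Only that of LTN1 passed the threshold, and TE is computed from the same mRNA values. With 1 library left out at a time, the estimates ranged from -1.06 to -0.69 for LTN1, -0.72 to -0.25 for NEMF and -0.50 to -0.12 for GIGYF2. GIGYF1 and the rescue factors, with mRNA changes near 0, had RPF changes of 0.15 to 0.73, none of them called. ZNF598, whose mRNA change was also near 0, had an RPF change of -0.61 and a TE change of -0.56 (edgeR FDR = 0.0697), not called either.

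**Figure D3:**
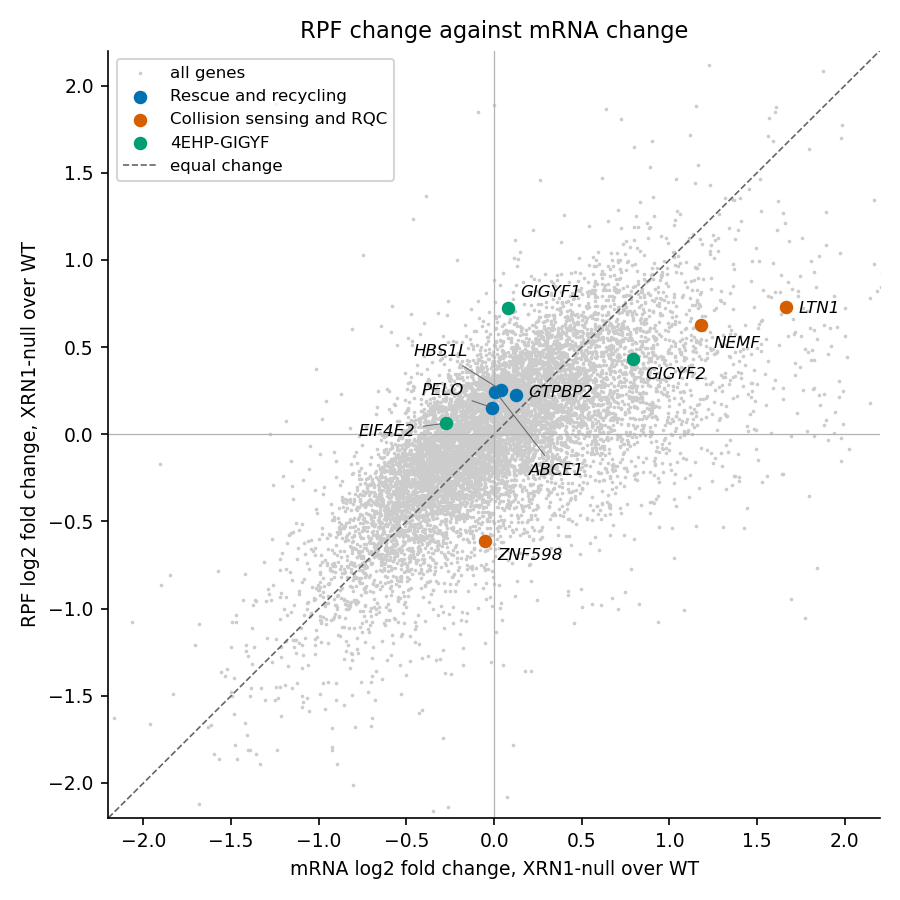
RPF against mRNA log2 fold change (XRN1-null over WT) for all genes in gray and the members in color by role, with a dashed line at equal change; 82 genes lie outside the axes. LTN1, NEMF and GIGYF2 sit to the right of the dashed line, and ZNF598 below it at an RPF change of -0.61.

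The members covered a wide range of TE already in WT cells. TE is given here as RPF CPM over mRNA CPM of the same genotype and replicate number, in relative units. The median over 9768 genes with at least 10 counts in every library was 0.829 in WT and 0.805 in XRN1-null cells. GIGYF1 had the lowest, 0.148 and 0.214 in the WT replicates, a mean that exceeded only 1.38% of genes. GTPBP2 followed at 0.271 and 0.256 (mean above 4.46% of genes), and ZNF598 at 0.343 and 0.331 (above 8.49%). In XRN1-null cells these 3 were still the lowest, with ZNF598 at 0.258 and 0.197, GTPBP2 at 0.285 and 0.275 and GIGYF1 at 0.316 and 0.271. They are also the 3 members in the group of genes highest in coding GC content, but a relation of TE level to GC content was not tested.

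PELO had the highest TE, 1.4 and 1.21 in WT but 1.48 and 1.44 in XRN1-null cells. The WT mean of PELO was above 80.8% of genes. The leader of its reference transcript holds 9 upstream ATG triplets, and a link of these to TE was not tested. That transcript has 4371 nt, against a deposited width of 2921 nt. ABCE1 was at 1.08 and 1.21 in WT and at 1.36 and 1.35 in XRN1-null cells, above 72.7% of genes in WT and 80.4% in XRN1-null cells. HBS1L, at 0.579 and 0.737 in WT, stood above 34.6% of genes, but above 76.3% when TE was taken per coding length, since its deposited width of 9332 nt is much longer than its coding sequence of 2052 nt. EIF4E2, with a coding sequence of only 735 nt in a width of 3891 nt, likewise stood above 21.8% of genes and, per coding length, above 72.1%. GIGYF1, ZNF598 and GTPBP2 stayed low per coding length, above 1.39%, 2.15% and 2.79% of genes. The mean TE of LTN1 went from above 68.4% of genes in WT to above 31.3% in XRN1-null cells, and that of NEMF from 72.5% to 49.7%.

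**Figure D4:**
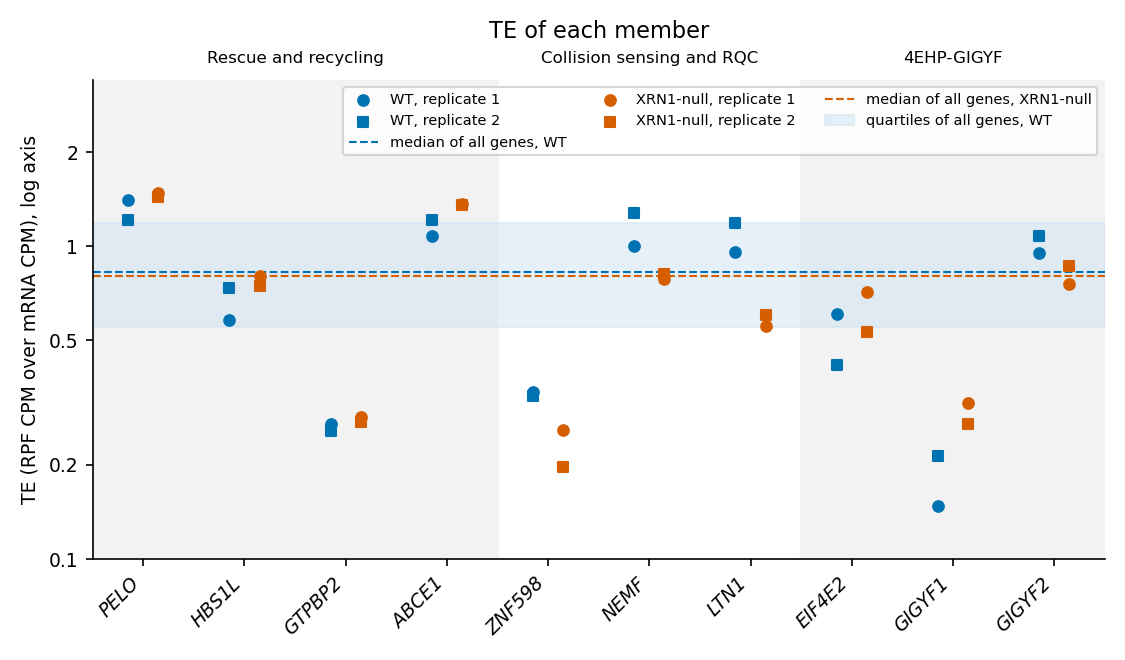
TE (RPF CPM over mRNA CPM, log axis) of each member, with 1 point per genotype and replicate number. Dashed lines are the medians of 9768 genes, 0.829 in WT and 0.805 in XRN1-null cells, and the band spans the quartiles of these genes in WT. GTPBP2, ZNF598 and GIGYF1 lie below the band in both genotypes, and the mean of LTN1 is 1.07 in WT and 0.579 in XRN1-null cells.

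By mRNA level per kb of the deposited width in WT, the order was ABCE1 (59.4 to 63 CPM per kb), ZNF598 (31.1 to 32.9), EIF4E2 (25.6 to 26), GTPBP2 (18.2 to 18.6), HBS1L (17.8 to 18.1), PELO (11.7 to 14.3), NEMF (11.6 to 12.6), GIGYF1 (7.47 to 8.34), GIGYF2 (6.49 to 7.41) and LTN1 (4.83 to 5.02). Only PELO and NEMF had overlapping ranges among neighbors in this order. In XRN1-null cells NEMF moved to the third place (26.9 to 28.1 CPM per kb), LTN1 to the seventh (15 to 16.2) and GIGYF1 to the last (7.96 to 8.73). With reference transcript lengths EIF4E2 came first in both genotypes, above ABCE1 (103 to 105 against 64 to 67.9 CPM per kb in WT), and the ranges of NEMF, PELO, GIGYF2 and GIGYF1 overlapped from neighbor to neighbor in WT. In footprints per kb of the deposited width ABCE1 was first in both genotypes, at 63.8 to 76.3 CPM per kb in WT and 82.9 to 83.7 in XRN1-null cells, and GIGYF1 last, at 1.23 to 1.6 and 2.37 to 2.51. Both places were the same per kb of coding sequence, but the order between them changed. Per kb of coding sequence the WT order after ABCE1 (149 to 178 CPM per kb) was EIF4E2 (57.5 to 82.2), HBS1L (47 to 60.7), PELO (41.5 to 43.8), NEMF (15.8 to 21.8), GIGYF2 (14.4 to 18.7), ZNF598 (13.3 to 13.6), GTPBP2 (8.01 to 8.65), LTN1 (6.78 to 8.71) and GIGYF1 (2.52 to 3.26). The ranges of EIF4E2 and HBS1L, of NEMF and GIGYF2 and of GTPBP2 and LTN1 overlapped.

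Other genes of these pathways were taken from 3 lists. Of 24 genes of the collision response and RQC, 23 were in the table. In mRNA 8 were called higher and 2 lower, where 22.9% and 23.2% of all genes were, with a median log2 fold change of 0.23 against -0.015 over all genes. The largest changes were those of GTPBP1, a GTPase and paralog of GTPBP2, and of GCN1, which binds collided ribosomes. GTPBP1 mRNA was at 122 and 140 CPM in WT and at 296 and 297 CPM in XRN1-null cells, a log2 fold change of 1.18 (edgeR FDR = 2.2e-05), the same size as that of NEMF. GTPBP1 footprints were at 67.2 and 68.5 CPM in WT and 67.3 and 77.4 CPM in XRN1-null cells, and its TE fell by 1.09 on the log2 scale (edgeR FDR = 0.00172), the only TE call of this list in edgeR, where 1.78% of all genes were called lower. At an unadjusted p under 0.05 in edgeR 5 of the 23 were lower in TE, against 14.6% of all genes. DESeq2 called 3 genes of the list lower in TE, GTPBP1, GCN1 and TCF25, against 3.19% of all genes it tested. GCN1 mRNA rose by 1.12 (edgeR FDR = 1.09e-05). In RPF edgeR and DESeq2 called 0 of the 23, and in edgeR 5 were higher and 2 lower at an unadjusted p under 0.05, against 16.2% and 16.8% of all genes. Of the further RQC genes of the list, named after their values were seen, ANKZF1 rose in mRNA by 0.93 (edgeR FDR = 0.000184), while TCF25 and VCP did not pass, with log2 fold changes of 0.15 (edgeR FDR = 0.0913) and 0.71 (edgeR FDR = 0.00649). TCF25 had an RPF log2 fold change of -0.68 (edgeR FDR = 0.0157) and a TE change of -0.83 (edgeR FDR = 0.0067), and VCP an RPF log2 fold change of 0.71 (edgeR FDR = 0.0249).

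Of 8 genes of termination and recycling 7 were in the table, and 2 fell in mRNA, against 23.2% of all genes, TRMT112 by 0.37 (edgeR FDR = 0.00149) and MCTS1 by 0.33 (edgeR FDR = 0.00245). TRMT112 supports the methyltransferase of eRF1, and MCTS1 acts with DENR in recycling of the small subunit. Beyond these, edgeR and DESeq2 called 0 genes of this list higher in mRNA, where edgeR called 22.9% of all genes higher. They also called 0 in RPF (0.633% of all genes higher and 1.14% lower in edgeR) and in TE (0.0495% and 1.78%). Among these contrasts only ETF1 in TE (higher) had an unadjusted p under 0.05 in edgeR. Over all genes the shares at this cutoff were 34% higher in mRNA, 16.2% higher and 16.8% lower in RPF, and 8.76% and 14.6% in TE. The median mRNA log2 fold change of the list was -0.17.

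Of 15 cap-binding and 4EHP-linked genes 12 were in the table, with 5 called higher and 3 lower in mRNA, against 22.9% and 23.2% of all genes, and a median log2 fold change of 0.18. EIF4G3, an eIF4G scaffold, had the largest rise (0.84, edgeR FDR = 0.00055), and EIF4EBP1, an inhibitor of eIF4E, the largest fall (-0.69, edgeR FDR = 9e-05). DDX6, the decay helicase that GIGYF proteins bind, was the only gene of the list called in RPF, where 0.633% of all genes were called higher. DESeq2 called it too, with 1.05% of the genes it tested. At an unadjusted p under 0.05 in edgeR 4 of the 12 were higher and 1 was lower in RPF, against 16.2% and 16.8% of all genes. DDX6 footprints were at 154 and 200 CPM in WT and at 336 CPM in both XRN1-null libraries, a log2 fold change of 0.92 (SE 0.153, edgeR FDR = 0.00435). Its mRNA rose less, by 0.36 (edgeR FDR = 0.00343), and its TE change of 0.55 (edgeR FDR = 0.0675) did not pass.

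The genes whose pattern over the 8 libraries was most like that of PELO were DBR1, LRPAP1 and UBR7, at distances of 0.106, 0.111 and 0.113. The distance is Euclidean, over log2(CPM + 0.5) values centered within each assay, and its median over 9767 genes was 0.639. Those closest to EIF4E2 were SPG21 (0.0888), DNAAF2 (0.139) and RABEP2 (0.142), with a median over all genes of 0.761.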

How the data were processed

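RNA-Seq and Ribo-Seq counts of 2 WT and 2 XRN1-null replicates per assay were analyzed. The authors filtered rRNA with Bowtie2, mapped to hg19 with Tophat2, kept footprints of the lengths with the clearest periodicity, counted reads per gene with QuasR and kept genes above an FPKM threshold, and they deposited raw counts with a width per gene. The annotation and strand setting are not given in the sources used here, nor is whether the TruSeq kit marked strand. The deposited tables of the authors' own comparisons (edgeR fold changes and FDR values, RiboDiff TE) were not used.

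Counts were fitted in R 4.3.3 with edgeR 4.0.16, with TMM factors within each assay, genotype as the only term per assay, and TE as the interaction of assay and genotype over the 8 libraries, since RiboDiff was not run. The quasi-likelihood test was adjusted (Benjamini-Hochberg) over 10105 genes, with no gene removed, and called at an FDR below 0.005. SE is the absolute log2 fold change over the square root of F. The functions were tested on simulated data. RNA-Seq totals were 33757487 to 38145433 counts and Ribo-Seq totals 1921641 to 4399542. Counts carry no molecular identifiers.

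Alternatives were DESeq2 size factors (RLE), library totals, DESeq2 1.42.0, a minimum of 10 counts in every library, an FDR of 0.05, replicate blocks and leaving out each library. A loess offset for coding GC content (span 0.3) was chosen after seeing the data, as were levels per kb of coding sequence or reference transcript. Positions, transcripts and sequences are from GENCODE release 44 mapped to GRCh37 and its genome, with 10030 genes matched, 478 of them by an older symbol.

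The members and lists were chosen with earlier results of these data known. Every member is named. Genes of the lists are named where they pass in RPF or TE or are among the 2 largest called mRNA changes of their list, and protein-coding genes of the table that overlap a member, XRN1 and the 3 most similar patterns to PELO and EIF4E2 are named too. ANKZF1, TCF25, VCP, ETF1 and the called cell markers were named after their values were seen.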

Additional observations from a re-analysis of the deposited data

Results flagged for a closer look

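The effect of genotype on LTN1 differed between the assays. The TE change, which is the RPF change of 0.73 minus the mRNA change of 1.66 as fitted in 1 model, was -0.94 on the log2 scale (edgeR's quasi-likelihood test of the interaction, FDR = 0.00386), with both XRN1-null TE values below both WT values. The FDR passed 0.005 in each fit of all libraries (0.00021 to 0.00491) but, of the 8 fits that left out 1 library, only without WT Ribo-Seq replicate 1.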

How the results depend on the processing

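The calls of LTN1, NEMF and GIGYF2 as higher in mRNA held under all 11 alternatives, of which the FDR of 0.05 could not have removed them. At an FDR of 0.05 1 member was lower in mRNA (EIF4E2), 2 were higher and 1 lower in RPF, and over all genes 714 were higher and 847 lower in RPF and 103 higher and 653 lower in TE. DESeq2 called 98 genes higher in RPF and 322 lower in TE, and library totals gave 133 genes higher in RPF. Signs near 0 changed for PELO mRNA with RLE factors (0.0068), library totals (0.047), DESeq2 (0.0065) and the minimum of 10 counts (0.014), for ZNF598 mRNA with library totals (0.0019) and the GC offset (0.10), and for HBS1L (-0.069) and ABCE1 mRNA (-0.12) with the GC offset. None of these values was called, and the cause was not tested. The GC offset also called 1 member lower in mRNA (EIF4E2).

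The replicate block called 1 member lower in mRNA (EIF4E2, FDR = 0.00286), 2 members higher in RPF (LTN1, FDR = 0.000142, and NEMF, FDR = 0.00065), and 616 genes higher and 665 lower in RPF. With the culture replicate block 55 genes were higher and 435 lower in TE. The labels do not say that a number marks a shared culture or day, and the deviations of same-numbered libraries correlated at 0.19 in RNA-Seq and 0.0803 in Ribo-Seq across 10105 genes, and between the assays at 0.355 in WT and 0.0326 in XRN1-null cells.

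Leaving out each library gave 0 to 1 members lower in mRNA, 0 to 5 higher and 0 to 1 lower in RPF, and 0 to 1 lower in TE. Over all genes 1097 to 3389 were lower in mRNA, 71 to 1282 higher and 72 to 1087 lower in RPF, and 0 to 9 higher and 19 to 230 lower in TE. The log2 fold changes ranged from -0.13 to 0.14 for PELO mRNA, -0.015 to 0.048 for ABCE1 mRNA, -0.0015 to 0.18 for GIGYF1 mRNA and -0.20 to 0.31 for EIF4E2 RPF. In such fits the lone library of a genotype is assumed to vary like the others. Of 380 values of single members, 340 kept their direction and side of the threshold, 18 came to pass it, 7 ceased to (all LTN1 TE) and 15 changed sign. The values at an FDR of 0.05 are those of the main fit judged at a looser threshold. They could come to pass it, but could not change sign or cease to pass. The Ribo-Seq depth limits GIGYF1 and GTPBP2 most.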
